A study of Macaca mulatta with 24 samples.

Results

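Postsynaptic scaffold genes encode the proteins that hold glutamate receptors and their signalling partners under the membrane of an excitatory synapse. The 9 genes described here are DLG2, DLG3 and DLG4 of the membrane-associated guanylate kinase family, DLGAP1, SHANK1, SHANK2, SHANK3, HOMER1 and HOMER2. They were taken by symbol, by a rule that uses no measured value although earlier results of these data were known, from the 17208 gene rows of an RNA-Seq study of the nucleus accumbens (NAcc) core of male rhesus macaques. Each symbol occurred once.

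RNA was taken from 24 unrelated adult males of 4 cohorts, with 1 library per animal. The drinkers were first induced to take ethanol by flavoured pellets delivered at timed intervals, and then chose between ethanol and water for about a year. The 8 low or binge drinkers (LD*) all carried the label LD, and the 8 heavy or very heavy drinkers (HD*) were 4 animals labelled HD and 4 labelled VHD. The 8 controls went through the same schedule with water in place of ethanol and received a maltose dextrin solution to match calories. Tissue was taken without a period of abstinence, and the 2 LD* animals of cohort 4 were older than the other animals. Daily ethanol intake was 0.47 to 2.07 g/kg in LD*, 2.74 to 3.09 g/kg in HD and 3.09 to 3.78 g/kg in VHD animals. Cohort 5 held 3 controls, 2 HD and 2 VHD animals, cohort 7a held 2 controls, 3 LD*, 2 HD and 2 VHD animals, cohort 7b held 3 controls and 3 LD* animals, and cohort 4 held 2 LD* animals only.

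At an excitatory synapse the scaffold is built in layers. DLG proteins bind the tails of NMDA receptors and of the proteins that accompany AMPA receptors, DLGAP1 (also called GKAP or SAPAP1) links them to the SHANK proteins deeper in the postsynaptic density, and HOMER proteins tie SHANK to group I metabotropic glutamate receptors and to intracellular calcium channels. In the striatum, of which the NAcc is the ventral part, most excitatory synapses of this kind lie on the spines of GABAergic projection neurons, and mutations in SHANK3 and DLG3 are known causes of neurodevelopmental disorders.

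The tissue carried the markers of the striatum. All 10 striatal projection neuron markers were detected, with a mean over the 24 animals of 2497 TPM (a transcript level corrected for gene length and for the total of each library) for PPP1R1B and 2638 TPM for PENK. One library stood apart, that of Control replicate 6 from cohort 7b. Its median correlation with the other animals over all genes was 0.924, against 0.951 to 0.984 for the others, and its 10 striatal markers summed to 739 TPM, where the highest control reached 11202 TPM. The same animal had the highest oligodendrocyte marker sum among the controls, 10429 TPM. The 4 cortical excitatory neuron markers were low in most animals, with group medians of 6.18, 15.8 and 9.32 TPM in Control, LD* and HD*, but their sum reached 395, 834 and 225 TPM in the highest animal of each group. Their score (the mean of centred log2(TPM + 1) over the list) was above 1.5 in 6 of the 24 animals, 2 controls, 2 LD* and 2 HD. In bulk tissue, fewer cells of a type and less RNA per cell cannot be told apart.

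The scaffold genes spanned a wide range of levels. DLG4, which encodes PSD-95, the most abundant of the DLG scaffolds at mature excitatory synapses, averaged 444 ± 77.5 TPM (SD, n = 24). SHANK3 followed at 129 ± 32.7 TPM and DLG2, which encodes PSD-93, at 102 ± 13.3 TPM. DLG3, which encodes SAP102, and SHANK1 averaged 73.4 ± 25.6 and 69.0 ± 35.4 TPM.

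The order of the first genes was nearly the same in every animal. DLG4 exceeded SHANK3 in 24 of 24 animals and SHANK3 exceeded DLG2 in 22 of 24. The lower genes were HOMER1 at 40.2 ± 17.03 TPM, DLGAP1 at 33.5 ± 13.2 TPM, SHANK2 at 18.1 ± 4.55 TPM and HOMER2 at 9.06 ± 3.42 TPM (SD, n = 24). SHANK2 exceeded HOMER2 in 23 animals. In the middle of the order the genes changed places between animals: DLG3 was above SHANK1 in 12 of 24, SHANK1 above HOMER1 in 15 and HOMER1 above DLGAP1 in 17. These neighbours thus had no fixed order, and their levels were not tested against each other.

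**Figure D1:**
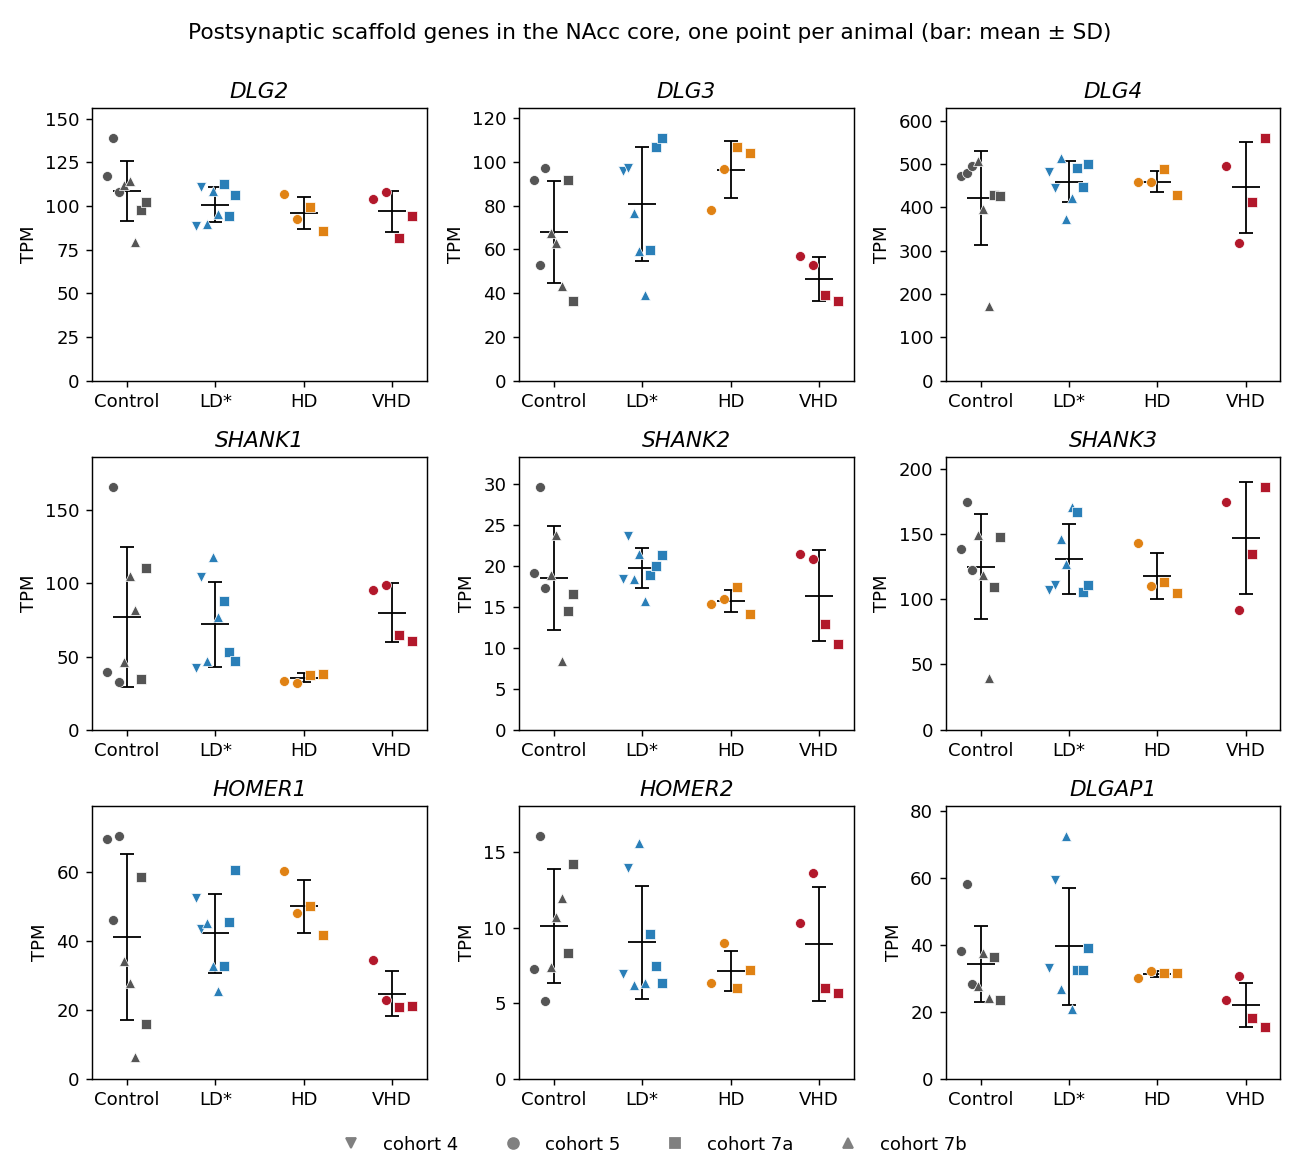
Level of each scaffold gene in TPM (vertical axes, from 0) in Control, LD*, HD and VHD animals, 1 point per animal, with the point shape giving the cohort and the black bar the mean ± SD. DLG3 and HOMER1 were higher and SHANK1 lower in all 4 HD animals than in any VHD animal, and the controls covered most of the range of both.

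The genes also differed in how far they varied from animal to animal. HOMER1 and SHANK1 had standard deviations of 0.76 and 0.70 on the log2(TPM + 1) scale over the 24 animals, larger than those of 97.0% and 96.1% of the 9197 genes averaging 10 TPM or more. DLG3, at 0.54, exceeded 89.5% of them. DLG2 was the steadiest member, with a standard deviation of 0.18 against a median of 0.31 for those genes. HOMER1 ranged from 6.26 to 70.5 TPM and SHANK1 from 32.2 to 166 TPM, while DLG2 stayed between 79.3 and 139 TPM.

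The first question the design asks is whether drinking altered these genes. With controls, LD* and HD* animals compared by limma on log2(TPM + 1) over the 13637 genes that averaged 1 TPM or more, 0 of the 9 scaffold genes passed an adjusted p of 0.05 (Benjamini-Hochberg) in any of the 3 comparisons. Neither did any other gene, so that 0.00% of the genes tested were called for HD* versus Control, 0.00% for LD* versus Control and 0.00% for HD* versus LD*. The study's own DESeq2 tests did call genes for HD* versus Control at a false discovery rate under 0.05, with DLG3 among the lower ones. DESeq2 works on counts, which were not available here, and the reason for the different outcome was not tested. At an unadjusted p under 0.05 the same comparisons held 775, 387 and 147 genes, of which 0, 0 and 1 were scaffold genes.

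Values of the DLG family overlapped across the groups. DLG4 ran from 172 through a median of 450 to 507 TPM in controls, from 373 through 463 to 513 TPM in LD* and from 318 through 459 to 561 TPM in HD* animals. The lowest control was the library that stood apart. DLG4 differed between HD* and Control by 0.15 on the log2 scale (SE 0.16), and by -0.03 without that control. DLG3 ran from 36.5 through 65.3 to 97.2 TPM in controls, from 39.1 through 86.3 to 111 TPM in LD* and from 36.5 through 67.5 to 107 TPM in HD* animals, and all 3 groups covered nearly the same range. DLG2 had medians of 110, 101 and 96.8 TPM in Control, LD* and HD*, and its HD* difference from Control was -0.16 (SE 0.096, limma adjusted p = 0.706).

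DLGAP1 was the member with the lowest unadjusted p in any of these comparisons. It ran from 23.5 through 32.2 to 58.1 TPM in controls, from 20.7 through 32.7 to 72.6 TPM in LD* and from 15.6 through 30.3 to 32.1 TPM in HD* animals. The groups overlapped, and no HD* animal exceeded the median of the LD* animals. Its HD* minus LD* difference was -0.49 (SE 0.22, limma adjusted p = 0.937), with an unadjusted p under 0.05 that did not pass the adjustment. The difference was -0.35 without LD replicate 4. The 3 highest DLGAP1 values lay in animals with high cortical excitatory neuron scores. LD replicate 4 had 72.6 TPM and a score of 4.23, LD replicate 2 had 59.4 TPM and 2.25, and Control replicate 2 had 58.1 TPM and 3.09. The other 3 animals with a score above 1.5, HD replicates 2 and 4 and Control replicate 7, had 32.1, 31.6 and 36.2 TPM. The part of cortical tissue in the DLGAP1 values was not tested.

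The SHANK genes likewise overlapped. SHANK1 ran from 32.7 through 64.1 to 166 TPM in controls, from 42.4 through 65.1 to 118 TPM in LD* and from 32.2 through 49.5 to 98.6 TPM in HD* animals. SHANK2 had medians of 18.1, 19.4 and 15.7 TPM and SHANK3 medians of 130, 119 and 124 TPM in Control, LD* and HD*. Between HD* and Control the differences were -0.31 (SE 0.33) for SHANK1, -0.16 (SE 0.18) for SHANK2 and 0.14 (SE 0.22) for SHANK3. Without the control that stood apart, the SHANK3 value was -0.08 and the SHANK2 value -0.30. Without Control replicate 2, which had the highest SHANK1 (166 TPM) and SHANK2 (29.7 TPM) of all animals, the values were -0.12 for SHANK1 and -0.05 for SHANK2.

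HOMER1 ran from 6.26 through 40.1 to 70.5 TPM in controls, from 25.3 through 44.1 to 60.4 TPM in LD* and from 20.7 through 38.0 to 60.2 TPM in HD* animals. The values are sums over the transcripts of the gene, so the long forms, which cross-link receptors and SHANK, and the short activity-induced form, which breaks those links, were not separated. HOMER2 had medians of 9.52, 7.18 and 6.75 TPM in Control, LD* and HD*. The HD* minus Control difference was 0.07 (SE 0.36) for HOMER1, or -0.24 without the control that stood apart, and -0.28 (SE 0.22) for HOMER2, or -0.18 without Control replicate 2.

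These comparisons had limited precision. The 95% confidence intervals of the 9 HD* minus Control differences reached from -0.99 to 0.82 on the log2 scale, the widest being those of SHANK1 and HOMER1. The narrowest, that of DLG2, was -0.36 to 0.04. For each gene, changes inside its own interval could not be told from the spread between animals. The median over all genes tested was -0.12, and 0.00 once TMM factors (a trimmed mean of M-values per library) had been applied, a step that sets the bulk of genes level between animals. The medians of the scaffold genes were -0.16 for HD* versus Control, 0.15 for LD* versus Control and -0.21 for HD* versus LD*, beside -0.12, -0.03 and -0.08 for all genes.

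HD* animals and controls shared only cohorts 5 and 7a. In cohort 5 (4 HD*, 3 controls) 8 of the 9 genes were lower in HD*, and the smallest p of an exact two-sided permutation test was 0.0571, for DLG2, where the design allows 0.0286. In cohort 7a (4 HD*, 2 controls) 5 were lower, and the smallest exact p was 0.0667, for HOMER2, which is the smallest that design allows. LD* animals and controls met in cohorts 7b and 7a. In cohort 7b (3 LD*, 3 controls) 6 genes were higher in LD* and the smallest exact permutation p was 0.3, against a smallest possible of 0.1. In cohort 7a (3 LD*, 2 controls), a comparison added after seeing the data, 6 genes were higher as well, and SHANK2 had the smallest exact permutation p of 0.1, which is the smallest that design allows. No scaffold gene passed a limma interaction of the HD* effect with cohort 7a against cohort 5 (adjusted p = 1.00 for the 9 genes).

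**Figure D2:**
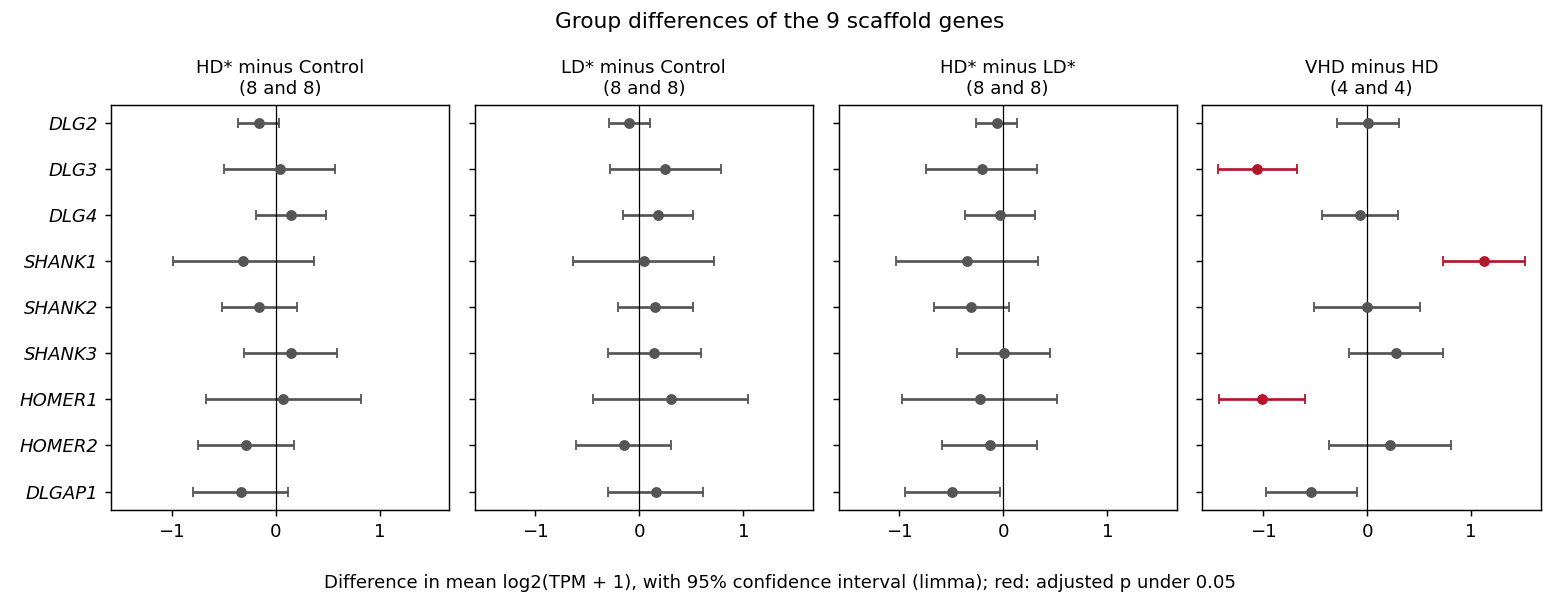
Difference in mean log2(TPM + 1) of each scaffold gene in 4 comparisons, with the 95% confidence interval from limma, 0 marked by the vertical line and red for an adjusted p under 0.05. Every interval but that of DLGAP1 in HD* minus LD* included 0 in the first 3 panels, and in VHD minus HD the intervals of DLG3, SHANK1, HOMER1 and DLGAP1 excluded 0, with DLGAP1 not past the adjusted p of 0.05.

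Among the group comparisons, the largest differences in the scaffold genes lay inside the HD* group, between its HD and VHD animals. The 4 VHD animals had about 0.481 times the DLG3, 0.497 times the HOMER1 and 2.18 times the SHANK1 of the 4 HD animals, as fitted on TPM + 1. These 3 of 9 genes passed the adjusted p of 0.05, 1 higher and 2 lower in VHD. The comparison called 14.6% of all 13637 genes tested (3.23% of all genes as higher and 11.4% as lower in VHD). After TMM rescaling 1180 genes were called higher and 1416 lower, in place of 441 and 1556, and the calls of the 3 scaffold genes kept their direction.

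DLG3 stood at 78.1, 96.8, 107 and 104 TPM in HD replicates 1 to 4 and at 56.8, 52.9, 39.2 and 36.5 TPM in VHD replicates 1 to 4. Every HD animal was above every VHD animal. The difference was -1.06 on the log2 scale (SE 0.17, limma adjusted p = 0.00585). SAP102, its product, is the DLG scaffold best known for carrying NMDA receptors to young synapses.

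HOMER1 stood at 60.2, 48.2, 49.9 and 41.7 TPM in HD replicates 1 to 4 and at 34.3, 22.7, 20.7 and 21.0 TPM in VHD replicates 1 to 4. Here too all HD animals were the higher ones. The difference was -1.01 (SE 0.19, limma adjusted p = 0.00851).

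SHANK1 went the other way. It stood at 33.4, 32.2, 37.5 and 38.4 TPM in HD replicates 1 to 4 and at 95.8, 98.6, 64.9 and 60.6 TPM in VHD replicates 1 to 4. The difference was 1.13 (SE 0.18, limma adjusted p = 0.00514), and the lowest VHD animal had more SHANK1 than the highest HD animal. As a within-animal ratio of levels, DLG3 to SHANK1 was 2.34 to 3.01 in HD and 0.537 to 0.603 in VHD animals, and HOMER1 to SHANK1 was 1.09 to 1.81 and 0.231 to 0.358.

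The values of the 4 HD and 4 VHD animals did not overlap in these 3 of 9 genes, as was the case for 23.3% of all genes tested. At an unadjusted p under 0.05, 4 of the 9 passed, beside 32.7% of all genes. The fourth was DLGAP1, at 29.9 to 32.1 TPM in HD and 15.6 to 30.6 TPM in VHD, with 1 VHD animal inside the HD range and a difference of -0.54 (SE 0.20, limma adjusted p = 0.0885).

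The other 5 genes were not called. DLG2 differed by 0.01 (SE 0.14), with a 95% interval of -0.29 to 0.31, which makes it the member with the narrowest bound. DLG4, at 428 to 488 TPM in HD and 318 to 561 TPM in VHD, differed by -0.07 (interval -0.43 to 0.29). SHANK2 differed by -0.000075 (SE 0.23), a mean over cohorts with opposite differences. It stood at 15.4 and 15.98 TPM in HD against 21.4 and 20.8 TPM in VHD animals of cohort 5, and at 17.4 and 14.1 TPM against 12.8 and 10.4 TPM in cohort 7a. SHANK3 differed by 0.27 (SE 0.21) and HOMER2 by 0.22 (SE 0.27), each with intervals that include 0. DLG4 and SHANK2 were 0.14 and 0.19 after TMM rescaling, so their sign depended on the scaling, and DLG3 and HOMER1, then at -0.85 and -0.81, were still lower.

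The HD and VHD differences of DLG3, SHANK1 and HOMER1 were present in both cohorts that held these animals, with 2 animals of each class in each. SHANK1 was about 33.4 and 32.2 TPM against 95.8 and 98.6 TPM in cohort 5, and 37.5 and 38.4 TPM against 64.9 and 60.6 TPM in cohort 7a. In a limma interaction the VHD minus HD difference in cohort 7a, less that in cohort 5, was -0.83 (SE 0.19) for SHANK1, -0.80 (SE 0.22) for DLG3, -0.81 (SE 0.27) for SHANK2 and -0.67 (SE 0.26) for DLGAP1. As fitted, the difference of SHANK1 was smaller and that of DLG3 larger in cohort 7a, without a call. These 4 had the smallest p of the scaffold genes. Neither they nor any other gene passed the adjustment over all genes (limma adjusted p = 0.247 for SHANK1, DLG3 and SHANK2 and 0.257 for DLGAP1).

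The single animals mattered more for the number of genes called than for the 3 scaffold genes. Leaving out HD replicates 1 to 4 in turn left 1094, 681, 607 and 723 genes, leaving out VHD replicate 3 left 476, and leaving out VHD replicate 2 gave 4651. DLG3, SHANK1 and HOMER1 were called under all 15 other settings fixed for this comparison, with limma adjusted p-values of up to 0.0317, 0.0240 and 0.0409. Without VHD replicate 2, SHANK3 (0.48, limma adjusted p = 0.0338) and DLGAP1 (-0.70, limma adjusted p = 0.00900) were called too.

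The HD and VHD animals lay partly inside and partly outside the ranges of the other groups. Of the VHD animals, 4 of 4 fell inside the controls' range for HOMER1 and SHANK1 and 3 of 4 for DLG3, the remaining one at 36.5 TPM, level with the lowest control. Of the HD animals, 4 of 4 fell inside it for HOMER1, 3 of 4 for SHANK1 and 2 of 4 for DLG3. Against the range of the LD* animals, 4 of 4 HD animals fell inside for HOMER1 and DLG3 and 0 of 4 for SHANK1, all being lower. Of the VHD animals, 4 of 4 fell inside it for SHANK1, 3 of 4 for DLG3, and 1 of 4 for HOMER1 and for SHANK3. All 4 HD animals had more HOMER1 and DLG3 than the median control, and all 4 VHD animals had less. All 4 HD animals were below the control median for DLG2, SHANK1, SHANK2, HOMER2 and DLGAP1, and all 4 VHD animals for DLG2 and DLGAP1. In the controls' range lay 1 of 4 VHD animals for DLGAP1 and 2 of 4 for SHANK3. Such counts were not made over all genes.

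Marker genes of cell types moved with the same contrast. The 10 striatal projection neuron markers summed to 8675 to 10250 TPM in HD and 3209 to 5944 TPM in VHD animals, and their score was 0.59 to 0.86 in HD and -0.77 to -0.03 in VHD. The 7 astrocyte markers summed to 1801 to 3149 TPM in HD and 4443 to 7236 TPM in VHD. The 7 microglia markers summed to 275 to 362 TPM in HD and 362 to 632 TPM in VHD, and none of the defining markers of these lists was at 0. Sums of the 11 oligodendrocyte markers overlapped (2639 to 4521 and 2573 to 5432 TPM), as did those of the 6 pan-neuronal markers (2576 to 3156 and 1215 to 2695 TPM) and of the 4 detected endothelial markers (83.3 to 103 and 55.2 to 105 TPM). As scores, in which each marker weighs the same, the picture differed for some lists. The astrocyte score overlapped (-0.70 to -0.08 in HD and -0.23 to 0.74 in VHD), as did the microglia score (-0.37 to 0.06 and -0.06 to 0.59), whereas the endothelial score did not (-0.03 to 0.19 and -0.37 to -0.06).

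With the striatal projection neuron score as a covariate in limma, 0 genes passed the adjustment and 1931 passed an unadjusted p under 0.05. The difference was then -1.18 for DLG3 (adjusted p = 0.353), 0.96 for SHANK1 (0.368) and -0.20 for HOMER1 (0.790). Since the score did not overlap between HD and VHD, its part and that of the drinking class cannot be told apart in these 8 animals. With the astrocyte score in its place, 5055 genes were called, and DLG3 (-1.13), SHANK1 (0.96) and HOMER1 (-1.05) stayed past the threshold (largest limma adjusted p = 0.00998). DLGAP1 was then called as well (-0.84, limma adjusted p = 0.0123). Both covariates were added after seeing the data.

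Over all 24 animals the striatal projection neuron scores fell on either side of a gap, between 0.01 and 0.45. With Control replicate 6 set aside it was the widest gap, at 0.44, and the next was 0.26. Control replicate 6 itself, at -3.12, lay further from the next lowest score, -1.03. The cut was placed after the values had been seen, and whether the scores form separate classes was not tested. Above it were 12 animals, 4 controls, 4 LD* and 4 HD, and below it were 12 animals, 4 controls, 4 LD* and 4 VHD. The HD and VHD classes thus sat wholly on opposite sides, and each of the other groups was divided evenly. Each of the 4 cohorts had animals on both sides.

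SHANK1 separated along the same line. It ran from 32.2 to 52.9 TPM in the 12 animals above the gap and from 60.6 to 166 TPM in the 12 below it, with no overlap, as did 311 of the 13637 genes (2.28%). DLG3 exceeded SHANK1 in 12 of 12 animals above the gap and in 0 of 12 below it. The sides were defined from the score after the values had been seen, so no test is given. HOMER1 (34.3 to 70.5 and 6.26 to 46.0 TPM) and DLG3 (67.5 to 111 and 36.5 to 97.2 TPM) overlapped across the gap. The controls were divided as well. Over the 24 animals SHANK1, HOMER1 and DLG3 had Spearman rho of -0.86, 0.90 and 0.73 with the score. A difference between the sides was thus partly built into the split, and its cause was not tested. The SHANK1 medians of the controls were 37.2 TPM above and 108 TPM below the gap, beside 35.4 TPM in HD and 80.4 TPM in VHD. HOMER1 medians were 64.0 and 21.8 TPM in these controls, beside 49.0 TPM in HD and 21.9 TPM in VHD. For DLG3 they were 91.8 and 48.0 TPM, beside 100 and 46.0 TPM.

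On each side of the gap the drinking groups could be set side by side. SHANK1 was 32.7 to 46.2 TPM in the 4 controls above the gap, 42.4 to 52.9 TPM in the 4 LD* and 32.2 to 38.4 TPM in the 4 HD animals, so that the LD* animals overlapped with the controls and lay above all HD animals. Below it, SHANK1 was 82.0 to 166 TPM in the 4 controls, 77.3 to 118 TPM in the 4 LD* and 60.6 to 98.6 TPM in the 4 VHD animals. HOMER1 was 34.3 to 70.5 TPM in the controls, 45.0 to 60.4 TPM in the LD* and 41.7 to 60.2 TPM in the HD animals above the gap, and 6.26 to 46.0 TPM, 25.3 to 43.3 TPM and 20.7 to 34.3 TPM in the controls, LD* and VHD animals below it. SHANK2 was 18.4 to 21.4 TPM in the LD* and 14.1 to 17.4 TPM in the HD animals above the gap, so it separated there as SHANK1 did. Every other pair of groups on the same side overlapped in SHANK1, SHANK2 and HOMER1. How many of all genes separated LD* from HD in this way was not counted, and the sides were set after the values had been seen.

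**Figure D3:**
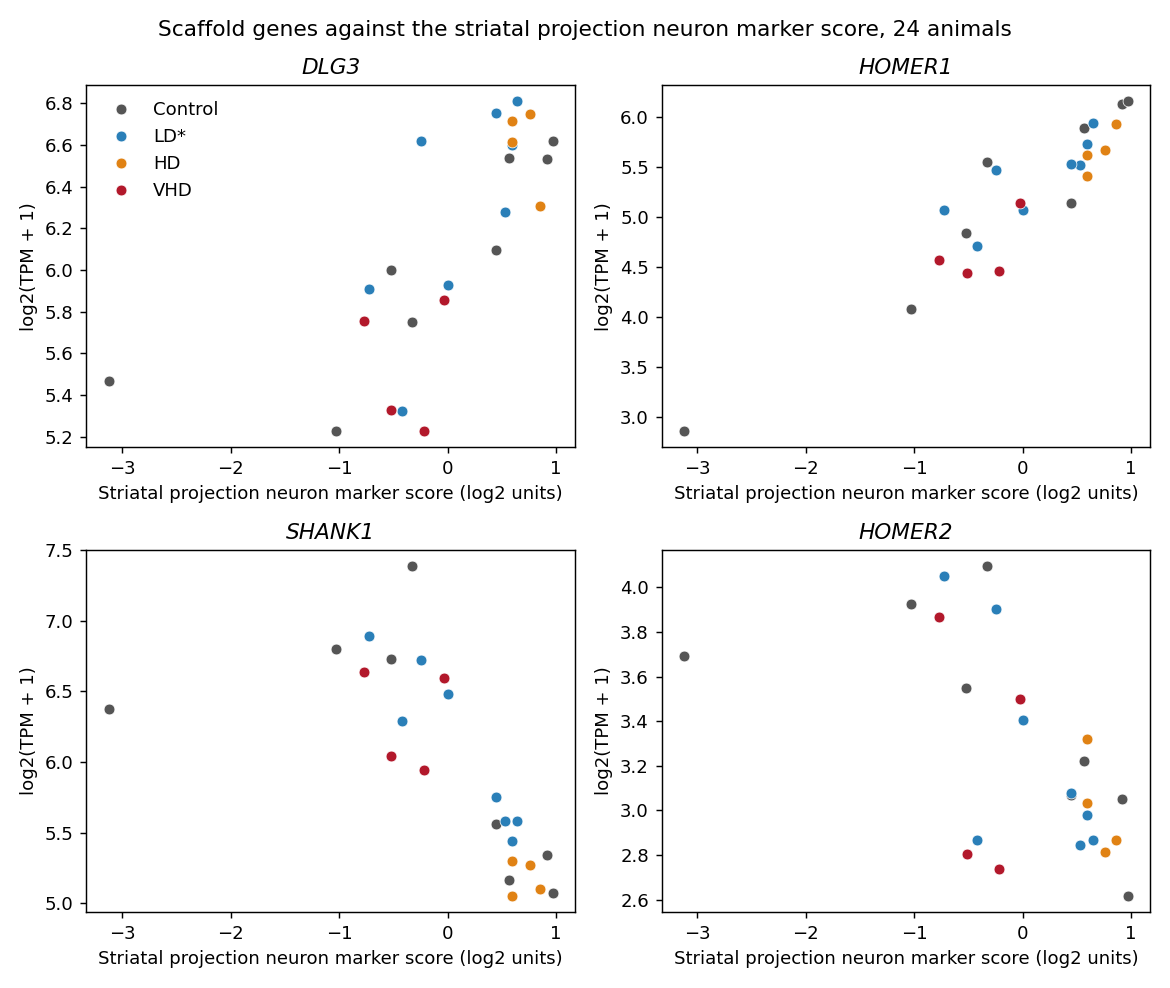
Level of DLG3, HOMER1, SHANK1 and HOMER2 as log2(TPM + 1) (vertical axes) against the striatal projection neuron marker score in log2 units (horizontal axes), 1 point per animal, coloured by group. A gap between 0.01 and 0.45 separated 12 animals from 12, with every HD animal to its right and every VHD animal to its left, and Control replicate 6 lay far to the left at -3.12.

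The member that followed the score most closely was HOMER1 above the gap and DLG4 below it. For HOMER1 the Pearson r with the score was 0.81 in the 12 animals above the gap and 0.87 in the 12 below, or 0.58 in the 11 left without Control replicate 6. DLG4 had r = 0.12 above and 0.94 below, and 0.71 without that animal. SHANK3 had r = 0.21 above and 0.90 below, and 0.50 without that animal. SHANK1 had r = -0.62 above and 0.07 below, and DLG3 had 0.14 and 0.28. These are descriptions over animals whose values share a fixed total, and carry no test.

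The scaffold genes did not vary as a single block. Over the 24 animals the 36 pairs had Pearson r between -0.63 and 0.82 on the log2 scale, with a median of 0.37, and 27 were above 0. The highest were DLG4 with SHANK3 (0.82, and 0.49 without Control replicate 6), SHANK1 with HOMER2 (0.80), DLG3 with HOMER1 (0.79) and DLG2 with SHANK2 (0.77). The lowest was DLG3 with SHANK1 (-0.63).

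Part of this pattern lay between the 2 sides of the gap. DLG3 with SHANK1 had r = -0.02 above it and 0.47 below it, and DLG3 with HOMER1 had 0.33 and 0.60. SHANK1 with HOMER2 had r = -0.01 above and 0.88 below. Above the gap 19 of 36 pairs were positive, with a median r of 0.03, and the most negative pair was DLG3 with SHANK3 (-0.86). Below it 32 of 36 were positive, with a median r of 0.56, and the highest pair was DLG4 with SHANK3 (0.96, and 0.84 without Control replicate 6). Without that animal 25 of 36 were positive, with a median r of 0.55, and the highest pair was SHANK1 with HOMER2 (0.91).

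**Figure D4:**
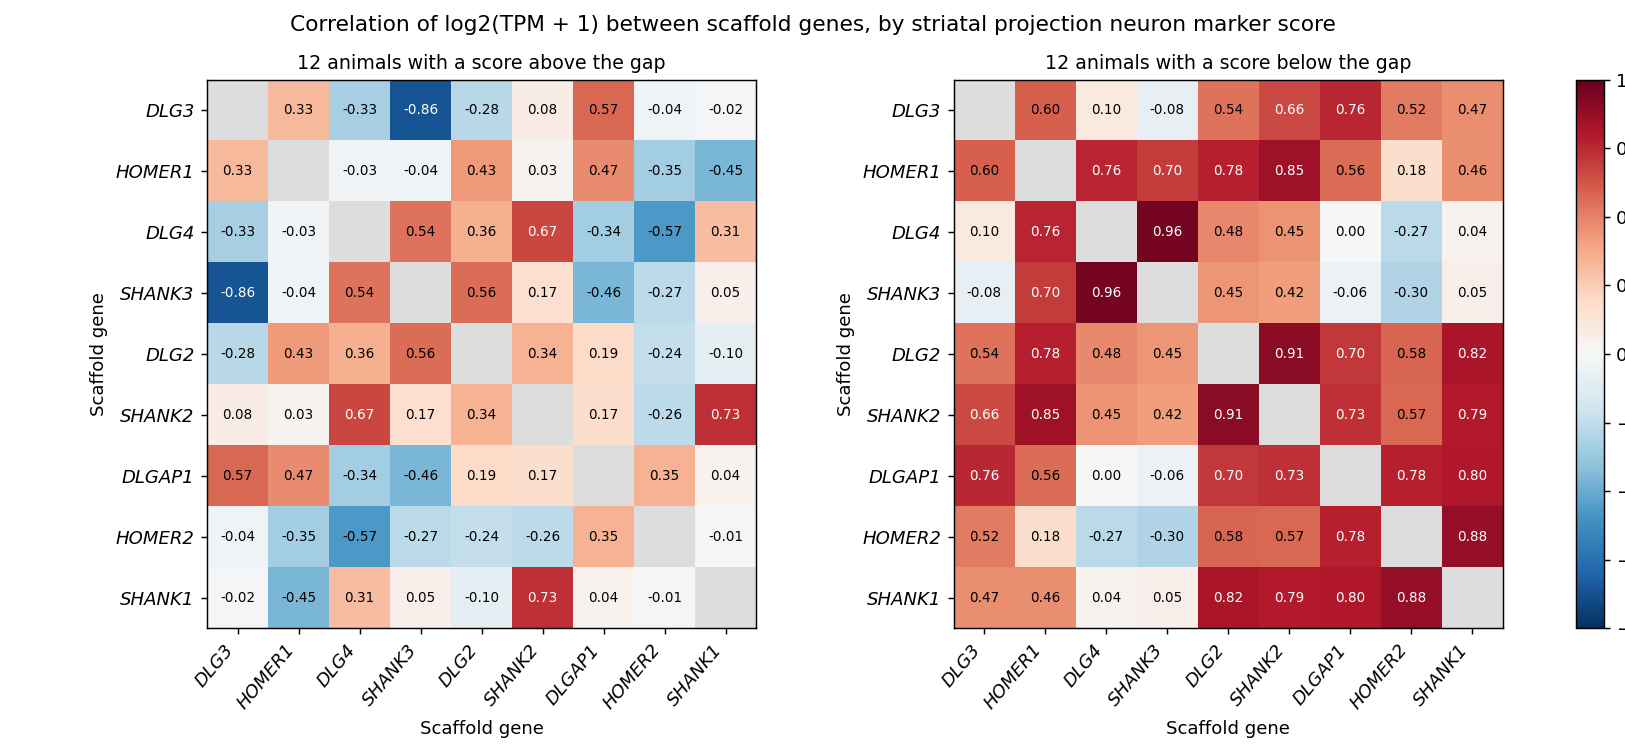
Pearson r of log2(TPM + 1) between scaffold genes in the 12 animals with a striatal projection neuron score above the gap (left) and the 12 below it (right), red for positive and blue for negative values. Pairs were mixed in sign on the left (19 of 36 positive) and mostly positive on the right (32 of 36, or 25 of 36 without Control replicate 6).

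Among the other cell type scores, DLGAP1 ran with the pan-neuronal score (r = 0.86 over 24 animals, 0.89 without Control replicate 6), and SHANK1 and HOMER2 ran with the astrocyte score (0.76 for both). DLG3 and HOMER1 ran against the astrocyte score (-0.67 and -0.69). DLG4 ran against the oligodendrocyte score (-0.72, and -0.58 without Control replicate 6). DLGAP1 also had r = 0.59 with the cortical excitatory neuron score, where the Spearman rho was 0.19. The astrocyte score entered a fit only for VHD against HD, as given above, and the part of the pan-neuronal and cortical scores in these levels was not tested.

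The dissection lay beside white matter, so each gene was fitted on the oligodendrocyte score in limma with study group as a term. The score was tied to 4.96% of all genes tested and to 1 of the 9 scaffold genes, DLG4. DLG4 fell by 0.37 per log2 unit of the score (SE 0.086, adjusted p = 0.00862). The call rested on the animal with the highest score, Control replicate 6. Without that animal the DLG4 slope was -0.20 (limma adjusted p = 0.214), and 328 genes were called in place of 676.

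Intake was fitted within the 16 drinkers with drinking group as a term. It was tied to 0 of the 9 genes and to 0.00% of all genes tested in limma, beside 1107 genes at an unadjusted p under 0.05. DLG3 had the smallest p of the scaffold genes, a slope of -0.61 on the log2 scale per g/kg of daily intake (SE 0.28, limma adjusted p = 0.498). HOMER1 had a slope of -0.48 (SE 0.27) and SHANK1 of 0.38 (SE 0.33), the directions of the VHD and HD contrast, which rests on the same animals. The SHANK1 slope turned to -0.09 with no group term and to -0.10 in LD* alone. Cohort, as the only batch the labels name, was tied to 0 of the 9 genes and to 0.00% of all genes (1140 at an unadjusted p under 0.05), with the smallest member p for HOMER1 (limma adjusted p = 0.540).

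For the partners of the scaffold, 5 lists of 49 genes were used, of which 47 were tested. They hold other DLG, DLGAP and HOMER genes, the receptors, auxiliary subunits and enzymes that bind PSD-95 or DLGAP, the binding partners of SHANK, those of HOMER, and actin and kinase proteins of the spine. For HD* versus Control 0 of the 47 were called in limma, and 3 had an unadjusted p under 0.05. The study's own DESeq2 tests reported ADAM22, ARHGEF7, GRIN2A, GRM5, LGI1 and NLGN1 of these lists as lower in HD*. Its qPCR on RNA of the same tissues also found ARHGEF7 lower in HD*, and GRM5 with a trend to lower values that was not significant. DNM2, a dynamin that binds SHANK, was 49.3 to 113 TPM in controls and 41.0 to 66.8 TPM in HD* animals, which overlapped (-0.31, SE 0.14, adjusted p = 0.706 in limma). DNM2 also rose with the oligodendrocyte score, by 0.36 per log2 unit (SE 0.061, limma adjusted p = 0.000363), or 0.29 without Control replicate 6. That score averaged 0.28 in controls and -0.08 in HD* animals, and with it as a covariate the DNM2 difference was -0.18 (SE 0.092). TANC1, a scaffold that binds PSD-95, was 3.89 to 5.79 TPM and 1.89 to 5.79 TPM (-0.29, SE 0.14, adjusted p = 0.706 in limma). With the oligodendrocyte score as a covariate the TANC1 difference was -0.26 (SE 0.14). Its slope on that score was 0.09 (SE 0.093, limma adjusted p = 0.711). The cause of the DNM2 and TANC1 differences was not tested.

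Between VHD and HD, 22 of the 47 partners were lower in VHD and 1 was higher at an adjusted p under 0.05 in limma, beside the 11.4% and 3.23% of all genes given above. After TMM rescaling 15 were lower and 1 higher, beside 1416 lower and 1180 higher of all 13637 genes tested. Of the 22 partners of PSD-95 and DLGAP, 15 were lower, as were 2 of 7 SHANK partners, 2 of 8 HOMER partners and 3 of 6 spine actin and kinase genes. None of the 4 tested members of the same families was called. The median difference of the 47 was -0.62, where that of all genes was -0.17, and -0.42 with TMM rescaling, where that of all genes was 0.00. The lists were chosen with earlier results of these data known. The study itself had reported glutamatergic synapse annotations among the genes higher in HD than in VHD. These counts and medians are therefore no independent result, and the lists were not tested as sets.

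The partners with the smallest p were TANC2 and GRM5. TANC2, a scaffold that binds PSD-95, was 47.1 to 51.1 TPM in HD and 17.6 to 30.8 TPM in VHD animals, without overlap (-1.05, SE 0.18, limma adjusted p = 0.00640). GRM5, the group I metabotropic glutamate receptor that HOMER proteins bind, was 59.8 to 77.8 TPM in HD and 18.4 to 37.1 TPM in VHD animals, also without overlap (-1.28, SE 0.22, limma adjusted p = 0.00641). Both were lower in VHD together with HOMER1 and DLG3, and so were the striatal projection neuron markers. In the controls GRM5 spanned 21.2 to 101 TPM and TANC2 16.7 to 64.9 TPM, which covered both classes apart from the lowest VHD animal for GRM5.

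The genes most like each member over the 24 animals, among the same 9197 genes, differed between the members. HOMER1 was closest to KCNQ5, a potassium channel gene (r = 0.98), and CDC40 (0.98), and most opposite to SNCG (-0.95). DLG3 was closest to KIAA1467 (0.98) and CHRNB2, a nicotinic receptor subunit (0.98), and most opposite to C11orf48 (-0.96). DLG4 was closest to JPH4 (0.97) and PAK6 (0.96), at 0.86 and 0.85 without Control replicate 6, and most opposite to EML2 (-0.92).

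SHANK3 ran closest to AGAP2 (0.95), a HOMER-binding GTPase, and KIFC2 (0.95), and most opposite to ERP29 (-0.90). SHANK1 was closest to CHD5 (0.92) and TBKBP1 (0.90) and most opposite to CKB, brain creatine kinase (-0.87). SHANK2 was closest to ZFR (0.88) and WDR44 (0.87). HOMER2 was closest to ADCY2, an adenylyl cyclase (0.91), and KCTD6 (0.90), with C20orf27 most opposite (-0.88). DLG2 was closest to DOK6 (0.87) and TTC7B (0.82), and NDUFS7 was most opposite both to it (-0.77) and to SHANK2 (-0.81). DLGAP1 was closest to FBXW7 (0.93) and IPO5 (0.92), with PRDX5 most opposite (-0.81). Likeness says nothing of shared control, and for HOMER1, DLG3 and SHANK1 it includes the difference between the animals on either side of the gap.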

How the data were processed

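PolyA-selected RNA libraries from the NAcc core of 24 animals were sequenced by the authors on an Illumina HiSeq instrument, aligned to the MacaM assembly with STAR 2.5.2b and counted with HTSeq 0.6.1p1, with DESeq2 for their own tests. The deposited values are TPM by the authors, read as such because each column summed to between 999998 and 1000000 and was not whole, despite a title that calls them DESeq2-normalized counts. How counts became TPM is not given in the sources used here, and the record and the methods describe strand and read pairing differently. Depth is unknown, so no counting interval is given, and edgeR was not used. Of 17208 rows, 27 symbols were dates and were kept. All 9 genes matched a RefSeq symbol. Coordinates and sequences were not used here.

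Values were compared on log2(TPM + 1), which understates changes of low genes, with limma 3.58.1 in R 4.3.3 (empirical Bayes with a trend, Benjamini-Hochberg over the 13637 genes averaging 1 TPM or more). One model held the 3 study groups, another the 8 HD* animals. P-values measure the spread between animals. Scores are means of centred log2(TPM + 1) over a marker list. Python 3.11.15, numpy 2.4.6, pandas 2.3.3, scipy 1.17.1 and matplotlib 3.10.9 did the rest. The fits were tested on simulated data. Alternatives were pseudocounts of 0.1 and 8, no filter, a filter of 10 TPM, TMM rescaling (30% of M and 5% of A trimmed), cohort and oligodendrocyte score covariates, and each animal left out. Striatal and astrocyte score covariates, LD* against Control within cohort 7a, and the sides of the score gap were added after seeing the data. Named genes are all members, the 2 partner genes with the smallest p in HD* versus Control and in VHD versus HD, and the 2 most alike and 1 most opposite gene of each member. The members and lists were chosen with earlier results of these data known.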

Additional observations from a re-analysis of the deposited data

Results flagged for a closer look

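In 45 combinations of a scaffold gene and a group, 3 had 1 animal far from the rest of its group by Dixon's criterion, where chance gives about 5%. DLG4 in Control replicate 6 was 172 TPM, against 396 to 507 TPM in the other 7 controls. HOMER1 in VHD replicate 1 was 34.3 TPM, against 20.7 to 22.7 TPM in the other 3 VHD animals, and its difference between VHD and HD without that animal was -1.17. DLGAP1 in Control replicate 2 was 58.1 TPM, against 23.5 to 38.2 TPM in the other controls. That animal had the highest cortical excitatory neuron score of the controls, 3.09.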

How the results depend on the processing

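Of 868 comparisons of a scaffold gene's value with that under another setting, 787 kept the direction and the side of the threshold, 74 changed sign, 4 lost a call and 3 gained one. The cause was not tested. In values of log2 difference, HD* versus Control became -0.13 for DLG3 and -0.26 for HOMER1 with cohort as a covariate, and -0.041 and -0.12 with the oligodendrocyte score. In cohorts 5 and 7a alone it was -0.065 for DLG3, -0.038 for DLG4, -0.085 for SHANK3 and -0.41 for HOMER1. LD* versus Control with the oligodendrocyte score was -0.0017 for DLG4 and -0.030 for SHANK3. HD* versus LD* was 0.026 for DLG2 and 0.059 for DLG4 with TMM rescaling, -0.24 for SHANK3 with cohort and 0.016 for DLG4 with the oligodendrocyte score. None of these was past the threshold in either setting.

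VHD versus HD was 0.012 for SHANK2 with a pseudocount of 8, 0.14 for DLG4 and 0.19 for SHANK2 with TMM rescaling, and -0.0029 for DLG2 and 0.017 for SHANK2 with the oligodendrocyte score. With the striatal projection neuron score, added after seeing the data, 0 genes were called in limma (1931 at an unadjusted p under 0.05), DLG4 was 0.88 and HOMER2 -0.49, and DLG3 (-1.18), SHANK1 (0.96) and HOMER1 (-0.20) lost their calls. With the astrocyte score, also added, 5055 genes were called, DLGAP1 (-0.84) gained a call, and DLG2 was -0.073, DLG4 0.24 and HOMER2 -0.23.

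The slope on intake was -0.028 for DLG2 and -0.094 for SHANK1 with no group term, -0.012 and -0.098 in LD* alone, 0.052 for DLG4, 0.30 for SHANK2 and 0.66 for HOMER2 in HD* alone, and 0.11, 0.074 and 0.053 for the same 3 genes with TMM rescaling. Without the animal with the highest oligodendrocyte score, 328 genes were called and the DLGAP1 slope was 0.091.

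With each animal left out in turn, HD* versus Control ranged from -0.075 to 0.16 for DLG3, -0.028 to 0.22 for DLG4, -0.075 to 0.23 for SHANK3 and -0.24 to 0.23 for HOMER1. LD* versus Control ranged from -0.10 to 0.23 for SHANK1, -0.078 to 0.22 for SHANK3 and -0.018 to 0.45 for HOMER1. HD* versus LD* ranged from -0.076 to 0.040 for DLG4 and -0.073 to 0.071 for SHANK3. VHD versus HD ranged from -0.045 to 0.089 for DLG2, -0.19 to 0.082 for DLG4 and -0.14 to 0.18 for SHANK2, and its number of called genes from 476 to 4651. DLG3, SHANK1 and HOMER1 kept their VHD versus HD calls with every animal left out. Depth could not limit any statement by a count, since TPM keeps none. No paired analysis was possible because the replicate numbers were given in accession order and pair no animals.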
